A study of Homo sapiens with 12 samples.

Results

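This report describes 47 genes of the integrated stress response and the unfolded protein response in prostate cancer cells depleted of CENPA, the histone H3 variant that marks centromeres. The members are the rows of the expression table whose symbol stands on a list of 47 named genes. All 47 were found among 14828 genes, and all 47 were among the 14624 genes that passed the filter on low values and were tested. The list was drawn up with earlier results of these data known, so it is not an independent choice.

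The cells were 22Rv1, a human prostate cancer line that carries androgen receptor and grows without added androgen. Lentivirus had brought in a pTRIPZ vector that doxycycline switches on, with an shRNA that was either nontargeting (shNT) or aimed at CENPA at 1 of 2 sequences (shCENPA1, shCENPA2). The study's text gives doxycycline at 2 µg/ml and 72 h for the knockdown relative to shNT. Neither it nor the labels state the treatment of the sequenced shNT cells, and no group here is without a vector. Polyadenylated RNA was sequenced from 2 libraries per shRNA, each run in lanes 7 and 8, and the lanes were averaged. The labels do not say that the 2 libraries of an shRNA came from separate cultures, so the p-values measure the spread between these libraries, which may be technical.

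The integrated stress response starts when a kinase phosphorylates the translation factor eIF2, which lowers protein synthesis in general while the mRNA of the transcription factor ATF4 is translated better. ATF4 and its partners then switch on genes for amino acid synthesis and uptake, tRNA charging and stress signalling. The unfolded protein response is the answer of the endoplasmic reticulum to misfolded protein. Its sensors are PERK (encoded by EIF2AK3), which feeds into ATF4, IRE1 (encoded by ERN1), which splices XBP1 mRNA, and ATF6, which is cleaved to release a transcription factor. The IRE1 and ATF6 arms raise chaperones and the machinery of ER-associated degradation.

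The motifs through which these factors are known to act give a first view of the members. RefSeq windows of 300 bases on GRCh38.p14, from 250 before to 50 after the annotated start, were found for 42 of the 47 members, of which 5 matched under a newer symbol. Both strands were searched for the C/EBP-ATF response element (CARE, TGATGNAAN), the ER stress response element (ERSE, CCAAT, then 9 bases of any kind, then CCACG), its variant ERSE-II (ATTGG, then 1 base of any kind, then CCACG) and the unfolded protein response element (UPRE, TGACGTGG). CARE was present in 9 of 25 integrated stress response members with a window (36.0%) and in 4.45% of the 27305 genes with any window. Taken over the 35116 windows, of which a gene may have several, the share was 3.61%. A match is a string of letters and was not tested as a binding site. Motifs and members were both chosen from what is known of these pathways, so the shares here and below are a description, not an independent result.

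The CARE matches that begin before the start follow with 10 bases on either side, read in the direction of the motif, which stands in capitals. They are printed because CHAC1, ASNS and GARS are among the members that rose with both CENPA-targeted shRNAs. STC2, DDIT4, PCK2, DDIT3, TRIB3, WARS and SARS also rose with both and had windows without CARE. CARE was also present in ATF3, CEBPG, AARS, CARS and SLC7A1, which did not rise with both, and in SLC3A2, which fell. A link between CARE and the rise was not tested.
CHAC1 (chr15:40953251-40953279, minus strand): ctggcaggagTGATGCAACggcaggggag
ASNS (chr7:97872458-97872486, minus strand): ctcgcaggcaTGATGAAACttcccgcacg
GARS (chr7:30594834-30594862, minus strand): gctcggagcaTGATGAAATcgccgcgtaa
AARS (chr16:70289676-70289704, plus strand): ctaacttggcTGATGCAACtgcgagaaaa
CARS (chr11:3057408-3057436, plus strand): tcctagaatcTGATGCAACcgccgccccg
CEBPG (chr19:33374061-33374089, plus strand): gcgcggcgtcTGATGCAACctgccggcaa
ATF3 (chr1:212565206-212565234, plus strand): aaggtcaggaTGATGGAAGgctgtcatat
HERPUD1 (chr16:56931955-56931983, minus strand): gggcacgggcTGATGCAACccgccgcgtc

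The same 9-base TGATGCAAC was read in CHAC1, AARS, CARS, CEBPG and HERPUD1. In SLC7A1 and SLC3A2 the CARE match began after the start and is not shown. HERPUD1 was the 1 unfolded protein response member of 17 with CARE (5.88%).

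ERSE showed the opposite distribution. It was present in 6 of the 17 unfolded protein response members (35.3%), in 0 of the 25 integrated stress response members and in 0.0916% of all genes with a window (0.0769% of windows). ERSE-II was present in SDF2L1 and HERPUD1 (11.8% of the 17 against 0.0696% of all genes and 0.0541% of windows). UPRE was found in CARS alone among the 42 members, against 0.927% of all genes and 0.729% of windows. No match overlapped another. The ERSE matches of the 6 members, of which HSP90B1 has 2, are shown with 5 bases on either side, since they set these promoters apart in sequence from those with CARE.
HSPA5 (chr9:125241386-125241414, minus strand): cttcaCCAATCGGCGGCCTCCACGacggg
HSP90B1 (chr12:103930211-103930239, plus strand): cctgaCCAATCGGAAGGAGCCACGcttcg
HSP90B1 (chr12:103930316-103930344, minus strand): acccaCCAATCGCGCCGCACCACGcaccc
XBP1 (chr22:28800598-28800626, minus strand): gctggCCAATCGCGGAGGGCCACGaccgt
PDIA6 (chr2:10812848-10812876, minus strand): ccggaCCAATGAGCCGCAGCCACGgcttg
CALR (chr19:12938379-12938407, minus strand): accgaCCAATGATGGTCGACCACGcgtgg
CRELD2 (chr22:49918549-49918577, minus strand): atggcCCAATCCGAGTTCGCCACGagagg

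Sequencing depth was 79172294 to 133074655 reads on genes per library, and members rested on 574 (STC2) to 191537 (HSP90B1) reads per library. CENPA fell by 70.9% with shCENPA1 (limma, adjusted p = 0.000287) and fell by 85.3% with shCENPA2 (adjusted p = 1.13e-05), so the targeted gene was lower where the labels place the knockdown. Between the shRNAs it was lower with shCENPA2 (log2 difference -0.98, adjusted p = 0.0209). All 10 luminal markers were in the table, at a summed 907 to 954 RPKM per library. Singly they ranged from -2.17 to 8.39 log2 RPKM, so the sum hides low values. No marker of basal cells (KRT5, KRT14, TP63), leukocytes (PTPRC, CD3E, CD68) or endothelium (PECAM1, VWF, CDH5) was in the table. Of 4 stromal markers 3 were listed, at a summed 3.68 to 3.95 RPKM with shNT, 3.55 to 3.57 with shCENPA1 and 5.86 to 5.98 with shCENPA2. Of the neuroendocrine markers CHGA and SYP were listed, at a summed 22.3 to 28.0 RPKM. The part of these levels in the results was not tested. In bulk RNA, fewer cells of a type and less RNA per cell cannot be told apart.

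With CENPA depleted, 12 of 47 members, led by STC2 and CHAC1, rose with both shRNAs, where 2.37% of all genes did. The transporter genes SLC7A5 and SLC3A2 fell with both, 2 of 47, a share close to the 4.13% of all genes. Of 9 ER chaperones and folding factors 0 passed with either in limma, too short a list to set against the shares of all genes. Among these, HSPA5 passed with shCENPA2 in a limma voom fit on recovered reads. A member is said to have risen or fallen where limma gave an adjusted p under 0.05 over all genes tested. With shCENPA1, 12 of 47 members rose and 2 fell, where 2.69% of all genes rose and 4.45% fell. With shCENPA2, 24 rose and 2 fell, where 8.05% of all genes rose and 10.5% fell. The median difference of the members from shNT was 0.24 and 0.31 in log2 RPKM, beside 0.00 and 0.01 for all genes tested.

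The shNT libraries serve both comparisons, which are therefore not independent. The 12 members that rose with shCENPA1 also rose with shCENPA2, where 2.37% of all genes rose with both. They were STC2, CHAC1, DDIT4, PCK2, NUPR1, ASNS, DDIT3, TRIB3, SHMT2, GARS, WARS and SARS. The 2 that fell with both were the transporter genes SLC7A5 and SLC3A2, where 4.13% of all genes fell with both. A further 12 members rose with shCENPA2 only by this threshold, 21 passed with neither and 0 passed in opposite directions.

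The counts can be split by role group. PERK feeds into ATF4, so the split does not separate the arms fully. Genes downstream of ATF4, such as DDIT3, count with the integrated stress response, and EIF2AK3 counts with the unfolded protein response. Of 30 members in the 5 integrated stress response groups, 12 rose and 2 fell with shCENPA1 and 23 rose and 2 fell with shCENPA2, with medians of 0.35 and 0.48. Of 17 members in the 3 unfolded protein response groups, 0 passed with shCENPA1 and 1, ATF6, rose with shCENPA2, with medians of 0.11 and 0.09. Over all genes, 2.69% rose and 4.45% fell with shCENPA1, and 8.05% rose and 10.5% fell with shCENPA2. At an unadjusted p under 0.05, 1 of the 17 was higher with shCENPA1 and 6 with shCENPA2, and 0 were lower. By that rule 10.7% of all genes were higher and 11.4% lower with shCENPA1, and 15.3% higher and 17% lower with shCENPA2. Limma voom on recovered reads called 0 of the 17 with shCENPA1 and 2 higher, ATF6 and HSPA5, with shCENPA2. Over all genes voom called 3.19% higher and 5.36% lower with shCENPA1, and 10.3% higher and 10.7% lower with shCENPA2. The difference between these sets of groups itself was not tested.

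By position of the libraries alone, 32 members were higher in every CENPA-depleted library than in both shNT libraries and 4 were lower in every one, where this held for 20.3% and 20.5% of all genes. A change of more than 2-fold in addition to the adjusted p was reached upward by CHAC1 and STC2 with shCENPA1 (0.821% of all genes), and by these and DDIT4, PCK2 and ALDH1L2 with shCENPA2 (1.68% of all genes). SLC7A5 alone fell by more than 2-fold, with shCENPA1 (1.83% of all genes). With shCENPA2 no member did, where 4.45% of all genes did.

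These counts depend on single libraries. The 12 became 7 without shNT library 1, 6 without shNT library 2 and 5 without shCENPA1 library 2, and the 24 became 15 without shNT library 1 and 13 without shNT library 2. The counts over all genes fell as well, from 393 higher with shCENPA1 to 182, 129 and 104, and from 1177 higher with shCENPA2 to 560 and 483.

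**Figure D1:**
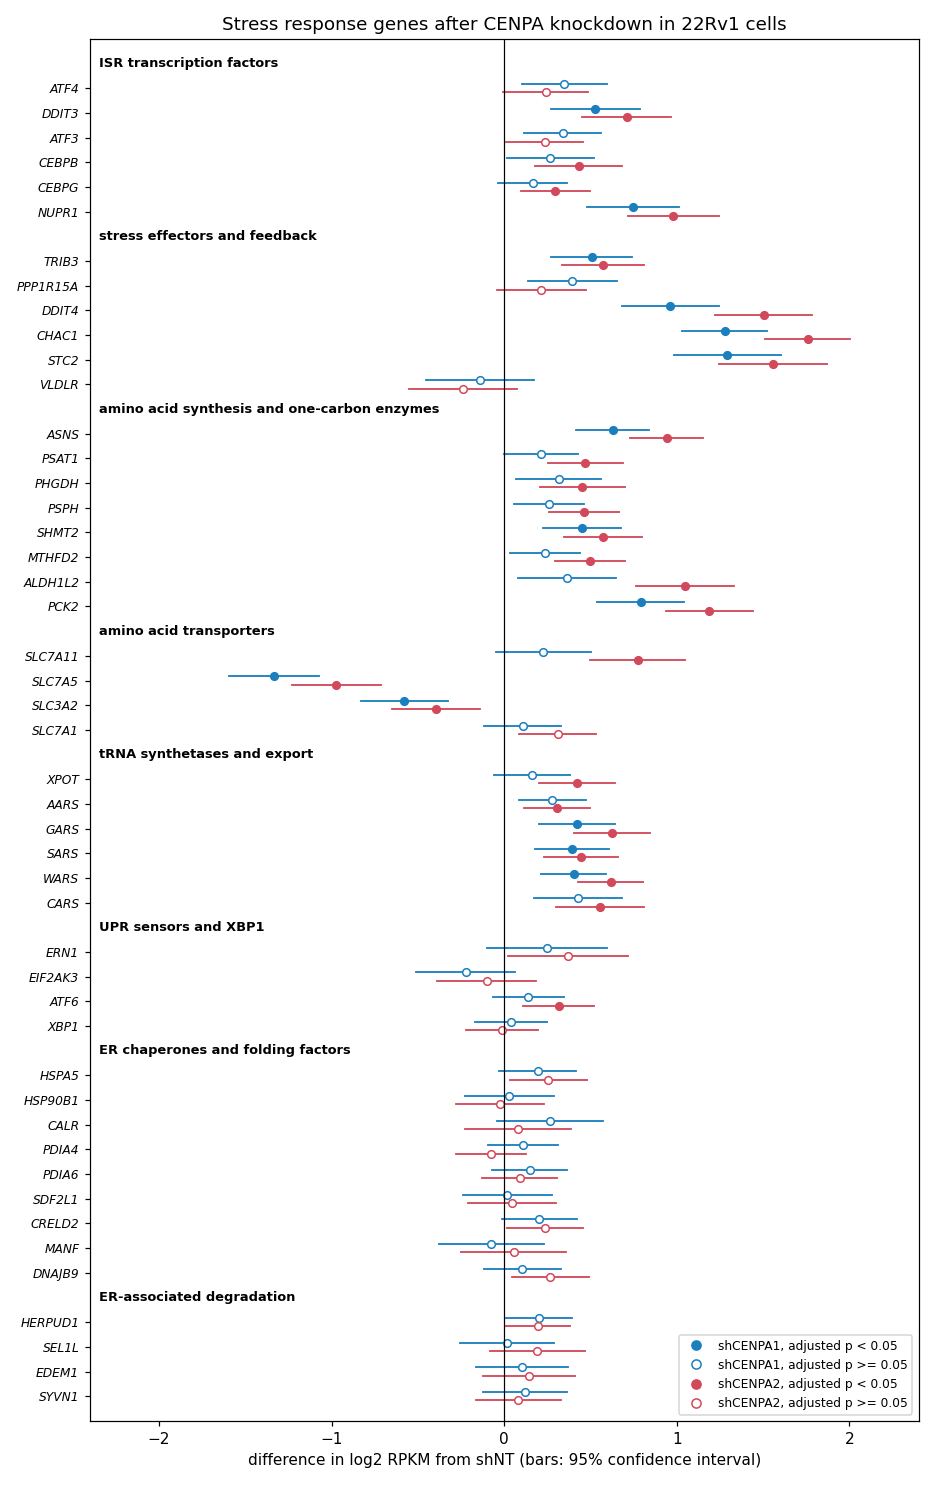
Difference from shNT in log2 RPKM (horizontal axis) for the 47 members grouped by role, with shCENPA1 in blue, shCENPA2 in red, filled points for adjusted p under 0.05 and bars for 95% confidence intervals from limma. The filled points lie in the 5 integrated stress response groups apart from ATF6 with shCENPA2, and SLC7A5 and SLC3A2 are the 2 members with filled points below 0.

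Among the transcription factors of the integrated stress response, DDIT3 and NUPR1 rose with both shRNAs, CEBPB and CEBPG rose with shCENPA2, and ATF4 and ATF3 did not pass with either. ATF4 (chromosome 22, 39519695 to 39522683, plus strand) is the central activator. It stood at 7.80 and 7.76 log2 RPKM under shNT, at 8.03 and 8.23 under shCENPA1 and at 8.04 and 8.0 under shCENPA2. All CENPA-depleted libraries were above both shNT libraries, with no overlap, and the shRNAs overlapped each other. The difference from shNT was 0.35 ± 0.11 (SE) with shCENPA1 (limma adjusted p = 0.0972) and 0.24 ± 0.11 with shCENPA2 (adjusted p = 0.165). ATF4 did pass with both shRNAs in a limma voom fit on recovered reads (adjusted p = 0.0274 and 0.0471) and after quantile normalization (0.00845 and 0.00245). These are mRNA levels and do not measure ATF4 translation.

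DDIT3, which encodes the proapoptotic factor CHOP (chromosome 12, 57516588 to 57521737, minus strand), stood at 5.43 and 5.50 log2 RPKM with shNT. With shCENPA1 it was at 5.85 and 6.14, and with shCENPA2 at 6.09 and 6.27. The depleted libraries did not overlap with shNT. DDIT3 rose 1.44-fold with shCENPA1 (log2 difference 0.53 ± 0.11, limma adjusted p = 0.0232) and 1.63-fold with shCENPA2 (0.71 ± 0.11, adjusted p = 0.00247). The shCENPA1 call was lost without shNT library 1, shNT library 2 or shCENPA1 library 2 (adjusted p = 0.131, 0.0866 and 0.151), and in limma without the variance trend (0.0881). Of its exon bases, 31.6% are also covered by MARS1 and MBD6 on the opposite strand, and the strand setting of the counting is not given in the sources used here.

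NUPR1 encodes a small stress-induced transcription regulator. Its libraries were at 4.68 and 4.48 log2 RPKM with shNT, 5.18 and 5.47 with shCENPA1, and 5.62 and 5.50 with shCENPA2, so both depleted groups lay above the controls. It rose 1.68-fold with shCENPA1 (limma adjusted p = 0.00488, and 0.0592 without shCENPA1 library 2) and 1.97-fold with shCENPA2 (adjusted p = 0.000495). ATF3 is a stress-induced partner and repressor in the bZIP family of ATF4. It was at 3.31 and 3.17 with shNT, 3.53 and 3.63 with shCENPA1, and 3.44 and 3.51 with shCENPA2. Its groups also did not overlap with shNT, and its differences of 0.34 and 0.23 did not pass (adjusted p = 0.0775 and 0.139). The C/EBP partners CEBPB and CEBPG differed from shNT by 0.27 and 0.16 with shCENPA1 without passing, and rose by 0.43 (adjusted p = 0.0265) and 0.30 (adjusted p = 0.0469) with shCENPA2. For CEBPB, 12.6% of exon bases are shared with an antisense gene of the table.

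The stress effectors held the largest increases of the list. CHAC1 encodes an enzyme that degrades glutathione (chromosome 15, 40952962 to 40956512, plus strand). Its level was 2.57 and 2.51 log2 RPKM with shNT, 3.82 and 3.82 with shCENPA1, and 4.44 and 4.17 with shCENPA2. The 3 groups did not overlap, and the shCENPA1 libraries lay between the others. CHAC1 rose 2.42-fold with shCENPA1 (1.28 ± 0.11, limma adjusted p = 0.000247) and 3.38-fold with shCENPA2 (1.76 ± 0.11, adjusted p = 1.5e-05).

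STC2 encodes the secreted glycoprotein stanniocalcin 2 (chromosome 5, 173314723 to 173328447, minus strand). It was at 0.26 and 0.15 log2 RPKM with shNT, 1.50 and 1.50 with shCENPA1, and 1.79 and 1.73 with shCENPA2. The groups were separated in the same order as for CHAC1. The rise was 2.45-fold with shCENPA1 (1.29 ± 0.14, limma adjusted p = 0.000659) and 2.94-fold with shCENPA2 (1.56 ± 0.14, adjusted p = 8.53e-05). With 1 added to RPKM both calls stayed and the log2 differences were 0.83 and 1.03, the first under 2-fold.

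DDIT4 encodes REDD1, an inhibitor of the growth kinase mTORC1 (chromosome 10, 72273919 to 72276036, plus strand). Controls were at 3.30 and 3.06 log2 RPKM, shCENPA1 libraries at 4.08 and 4.21 and shCENPA2 libraries at 4.83 and 4.54. It too had no overlap between any of the groups. DDIT4 rose 1.95-fold with shCENPA1 (0.96 ± 0.12, limma adjusted p = 0.0017) and 2.83-fold with shCENPA2 (1.50 ± 0.12, adjusted p = 5.81e-05).

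TRIB3, a pseudokinase that feeds back on ATF4 and DDIT3, rose less. It was at 5.52 and 5.32 log2 RPKM with shNT, 5.85 and 5.99 with shCENPA1, and 6.06 and 5.92 with shCENPA2, with the shRNAs overlapping each other. The rise was 1.42-fold (limma adjusted p = 0.0201) and 1.49-fold (adjusted p = 0.00514). Without shNT library 2 both calls were lost (adjusted p = 0.261 and 0.0681), and the first was also lost without shCENPA1 library 1 (0.0597) or library 2 (0.153) and without the variance trend (0.0803). PPP1R15A encodes GADD34, which returns eIF2 to its unphosphorylated form. It differed from shNT by 0.39 and 0.21 and did not pass (adjusted p = 0.0765 and 0.236). VLDLR, a lipoprotein receptor, was at -0.14 and -0.24 relative to shNT and did not pass either.

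**Figure D2:**
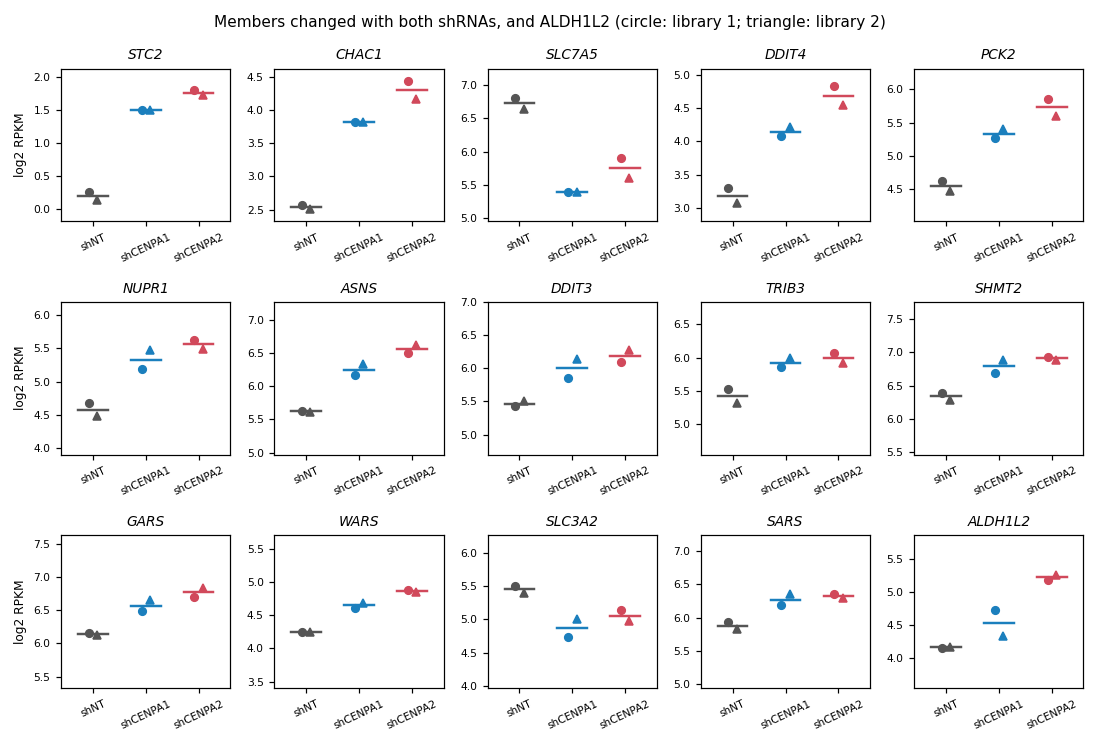
Log2 RPKM (vertical axis, each panel spanning the same range of log2 units) in the 2 libraries of shNT, shCENPA1 and shCENPA2 for the 14 members that passed with both shRNAs and for ALDH1L2, with a line at each group mean. In each of the 14, chosen because they passed, no CENPA-depleted library overlaps with shNT. This held for 20.3% (higher) and 20.5% (lower) of all genes. SLC7A5 and SLC3A2 lie below shNT and the other 12 above.

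All 8 enzymes of amino acid synthesis and one-carbon metabolism rose with shCENPA2, where 8.05% of all genes rose. Of them 3, ASNS, PCK2 and SHMT2, also rose with shCENPA1, where 2.69% of all genes rose. ASNS makes asparagine (chromosome 7, 97851677 to 97872542, minus strand). Its libraries read 5.63 and 5.62 log2 RPKM with shNT, 6.17 and 6.33 with shCENPA1, and 6.50 and 6.63 with shCENPA2. The 3 groups were separate. ASNS rose 1.54-fold (0.63 ± 0.09, limma adjusted p = 0.00378) and 1.92-fold (0.94 ± 0.09, adjusted p = 0.000169).

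PCK2 is the mitochondrial phosphoenolpyruvate carboxykinase (chromosome 14, 24094053 to 24110598, plus strand). It was at 4.62 and 4.47 log2 RPKM with shNT, 5.26 and 5.41 with shCENPA1, and 5.86 and 5.60 with shCENPA2, again with 3 separate groups. It rose 1.73-fold with shCENPA1 (limma adjusted p = 0.00277, and 0.0565 without shCENPA1 library 2) and 2.28-fold with shCENPA2 (adjusted p = 0.000122). SHMT2, the mitochondrial enzyme that takes a one-carbon unit from serine, was at 6.39 and 6.29 with shNT, 6.69 and 6.88 with shCENPA1, and 6.94 and 6.88 with shCENPA2. The depleted groups were both above shNT and could not be ordered against each other. SHMT2 rose 1.37-fold (adjusted p = 0.0255) and 1.49-fold (adjusted p = 0.00375), and the first call was lost without shNT library 1, shNT library 2 or shCENPA1 library 2 (adjusted p = 0.114, 0.306 and 0.136), or without the variance trend (0.0829).

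The serine pathway enzymes PHGDH, PSAT1 and PSPH and the folate enzyme MTHFD2 each differed by 0.21 to 0.32 from shNT with shCENPA1, without passing. With shCENPA2 they rose by 0.45 to 0.50 (limma adjusted p = 0.0186 for PHGDH, 0.00837 for PSAT1, 0.00708 for PSPH and 0.00469 for MTHFD2). PSPH has a near-identical copy, PSPHP1, in the table, so how reads were split between them is uncertain. MTHFD2 shares 11.6% of its exon bases with SLC4A5 on the opposite strand.

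ALDH1L2, the mitochondrial formyltetrahydrofolate dehydrogenase (chromosome 12, 105019784 to 105107643, minus strand), was the 1 member that passed between the 2 CENPA-targeted shRNAs. It was at 4.16 and 4.17 log2 RPKM with shNT, 4.73 and 4.33 with shCENPA1, and 5.18 and 5.25 with shCENPA2. The shCENPA2 libraries were above all others, and the shCENPA1 libraries lay far apart. ALDH1L2 rose 2.07-fold with shCENPA2 (1.05 ± 0.13, limma adjusted p = 0.00049). With shCENPA1 its difference was 0.36 ± 0.13 (adjusted p = 0.127). This value rests on which shCENPA1 library is used, being 0.16 (adjusted p = 0.303) without library 1 and 0.56 (adjusted p = 0.0306), past the threshold, without library 2.

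The transporter genes went in different directions. SLC7A5 encodes LAT1, which imports large neutral amino acids in a heterodimer with the SLC3A2 product CD98 heavy chain. SLC7A5 (chromosome 16, 87830023 to 87869507, minus strand) was at 6.81 and 6.65 log2 RPKM with shNT, 5.39 and 5.40 with shCENPA1, and 5.91 and 5.60 with shCENPA2. Every depleted library was below both controls, and shCENPA1 was the lowest group. SLC7A5 fell to 0.396 of its shNT level with shCENPA1 (-1.34 ± 0.12, limma adjusted p = 0.000252) and to 0.51 with shCENPA2 (-0.97 ± 0.12, adjusted p = 0.000456). SLC7A5 has near-identical pseudogene copies elsewhere in the genome, and how reads matching several copies were counted is not given in the sources used here.

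SLC3A2 (chromosome 11, 62856004 to 62888880, plus strand) was at 5.51 and 5.40 log2 RPKM with shNT, 4.74 and 5.01 with shCENPA1, and 5.14 and 4.98 with shCENPA2. Both depleted groups were below shNT and overlapped each other. It fell to 0.67 of the shNT level (-0.58 ± 0.11, limma adjusted p = 0.0146) and to 0.761 (-0.39 ± 0.11, adjusted p = 0.0384). The shCENPA1 call was lost without shNT library 1 or shCENPA1 library 1 (adjusted p = 0.0924 and 0.081). The shCENPA2 call was lost without any 1 of the shNT and shCENPA2 libraries (adjusted p = 0.0502 to 0.225). Without the variance trend both were lost (0.0683 and 0.108).

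SLC7A11, the cystine importer that also pairs with CD98 heavy chain, rose 1.71-fold with shCENPA2 (limma adjusted p = 0.00226). With shCENPA1 its difference was 0.23 ± 0.12 (adjusted p = 0.321). SLC7A1, the arginine and lysine transporter, differed by 0.11 and 0.31 and did not pass (adjusted p = 0.575 and 0.0576).

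The tRNA synthetases and the tRNA export factor XPOT all rose with shCENPA2, 6 of 6, by 0.31 (AARS) to 0.62 (GARS) in log2 RPKM. Of all genes 8.05% rose with shCENPA2 and 2.69% with shCENPA1. With shCENPA1, GARS, SARS and WARS rose, and AARS, CARS and XPOT did not pass (limma adjusted p = 0.0895, 0.0545 and 0.374). GARS, which charges glycine tRNA, was at 6.16 and 6.13 with shNT, 6.48 and 6.65 with shCENPA1, and 6.70 and 6.84 with shCENPA2. The groups were separate, and the rises were 1.34-fold (adjusted p = 0.0325) and 1.54-fold (adjusted p = 0.00224).

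WARS, the tryptophan enzyme, read 4.24 and 4.24 log2 RPKM with shNT, 4.61 and 4.69 with shCENPA1, and 4.87 and 4.85 with shCENPA2. It too had 3 separate groups, with rises of 1.32-fold (limma adjusted p = 0.0202) and 1.53-fold (adjusted p = 0.000998). SARS, the serine enzyme, was at 5.93 and 5.83 with shNT, 6.19 and 6.35 with shCENPA1, and 6.36 and 6.29 with shCENPA2, and the depleted groups overlapped each other above shNT. Its rises were 1.31-fold (adjusted p = 0.0378) and 1.36-fold (adjusted p = 0.0105). The shCENPA1 calls of GARS, WARS and SARS were each lost without shNT library 1 (adjusted p = 0.173, 0.175 and 0.153), shNT library 2 (0.295, 0.23 and 0.415) or shCENPA1 library 2 (0.17, 0.0999 and 0.183), and without the variance trend (0.0987, 0.0747 and 0.112). The SARS call with shCENPA1 was also lost without shCENPA1 library 1 (0.0503), and that with shCENPA2 without shNT library 1 or 2 (0.0518 and 0.135).

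Of the sensors of the unfolded protein response and XBP1, 0 of 4 passed with shCENPA1 and ATF6 passed with shCENPA2. Among all genes 2.69% rose and 4.45% fell with shCENPA1, and 8.05% rose and 10.5% fell with shCENPA2. ATF6 was at 3.99 and 3.98 log2 RPKM with shNT, 4.17 and 4.08 with shCENPA1, and 4.24 and 4.37 with shCENPA2. Its groups were separate, with a rise of 1.25-fold with shCENPA2 (0.32 ± 0.09, limma adjusted p = 0.0407) and a difference of 0.14 ± 0.09 with shCENPA1 (adjusted p = 0.413). The ATF6 call was lost without shNT library 1, shNT library 2 or shCENPA2 library 2 (adjusted p = 0.225, 0.273 and 0.127) in lane 7 alone (0.0632) and without the variance trend (0.0993).

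ERN1 was at 1.46 and 1.39 log2 RPKM with shNT, 1.81 and 1.53 with shCENPA1, and 1.94 and 1.65 with shCENPA2. The depleted libraries were above shNT, with the 2 libraries of each shRNA far apart, and the differences of 0.25 and 0.37 did not pass (limma adjusted p = 0.397 and 0.133). EIF2AK3 was at 1.87 and 1.89 with shNT, 1.74 and 1.58 with shCENPA1, and 1.84 and 1.72 with shCENPA2. It was the 1 sensor whose depleted libraries lay below shNT, by -0.22 and -0.10, without passing (adjusted p = 0.35 and 0.635).

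XBP1 was at 5.88 and 5.79 log2 RPKM with shNT, 5.80 and 5.94 with shCENPA1, and 5.77 and 5.86 with shCENPA2, and the groups overlapped. Its difference from shNT was 0.04 with shCENPA1 (95% interval -0.17 to 0.25) and -0.01 with shCENPA2 (-0.22 to 0.19). Gene totals do not separate spliced from unspliced XBP1.

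None of the 9 ER chaperones and folding factors passed with either shRNA in limma. At an unadjusted p under 0.05 the counts were 0 with shCENPA1 and 3 with shCENPA2, all higher. By that rule 10.7% of all genes were higher with shCENPA1 and 15.3% with shCENPA2. HSPA5 encodes BiP, the main chaperone of the ER lumen (chromosome 9, 125234853 to 125241382, minus strand). It was at 7.41 and 7.37 log2 RPKM with shNT, 7.52 and 7.65 with shCENPA1, and 7.62 and 7.67 with shCENPA2. The depleted libraries lay above both controls. The differences were 0.19 ± 0.10 (limma adjusted p = 0.293) and 0.25 ± 0.10 (adjusted p = 0.108), and the second passed in the voom fit on recovered reads (0.28, adjusted p = 0.0297) and after quantile normalization (0.29, adjusted p = 0.0103). The other members of the group (HSP90B1, CALR, PDIA4, PDIA6, SDF2L1, CRELD2, MANF and DNAJB9) lay between -0.08 and 0.26 with shCENPA1 and between -0.08 and 0.27 with shCENPA2. For HSP90B1 the 95% intervals were -0.23 to 0.29 and -0.28 to 0.23. PDIA6 shares 25.2% of its exon bases with ATP6V1C2 on the opposite strand.

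The 4 genes of ER-associated degradation did not pass in limma either, and 1 of them was higher with each shRNA at an unadjusted p under 0.05. Of all genes, 10.7% were higher with shCENPA1 and 15.3% with shCENPA2 by that rule. They differed from shNT by 0.02 to 0.20 with shCENPA1 and by 0.08 to 0.19 with shCENPA2. HERPUD1, a membrane component of the degradation machinery whose promoter window held both CARE and ERSE-II, was at 4.54 and 4.49 log2 RPKM with shNT, 4.68 and 4.75 with shCENPA1, and 4.69 and 4.73 with shCENPA2. The 4 depleted libraries were all above shNT and close to one another, with differences of 0.20 and 0.19 (limma adjusted p = 0.201 and 0.148). SEL1L and SYVN1, parts of a ubiquitin ligase, and EDEM1, which selects glycoproteins for degradation, had libraries that overlapped shNT with at least 1 shRNA.

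**Figure D3:**
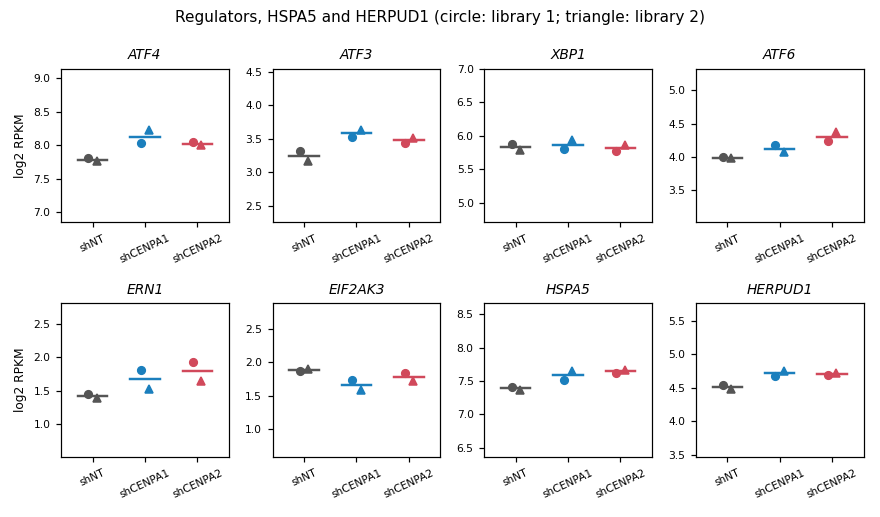
Log2 RPKM (vertical axis, each panel spanning the same range of log2 units) in the 2 libraries of each shRNA for ATF4, ATF3, the unfolded protein response sensors, XBP1, HSPA5 and HERPUD1, with a line at each group mean. ATF4, ATF3, ERN1, HSPA5 and HERPUD1 lie higher in all CENPA-depleted libraries by small amounts that did not pass in the main limma fit. ATF4 with both shRNAs and HSPA5 with shCENPA2 passed in voom. ATF6 also lies higher in all of them and passed with shCENPA2. Such a position held for 20.3% of all genes. EIF2AK3 lies lower in all of them, as held for 20.5% of all genes, and XBP1 overlaps in all groups.

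The 2 CENPA-targeted shRNAs were also compared directly, as a contrast of the same fit, so the shNT libraries enter the estimate of the spread but not the difference. The difference between shCENPA2 and shCENPA1 was above 0 for 36 of 47 members and for 26 of the 30 integrated stress response members, beside 7217 of 14624 genes. By the test, 1 member was higher with shCENPA2 (0.39% of all genes) and 0 were lower (1.03% of all genes). With the shNT libraries left out of the fit, 2 were higher (0.568% of all genes). At an unadjusted p under 0.05, 11 were higher and 0 lower, where 5.46% of all genes were higher and 7.84% lower. Limma voom on recovered reads called 3 higher, DDIT4, ALDH1L2 and SLC7A11, and 0 lower, beside 0.684% and 1.07% of all genes. The 1 member past the adjusted threshold in limma was ALDH1L2, at 0.69 ± 0.13 (limma adjusted p = 0.0335). The call was lost without shCENPA1 library 2 (0.48, adjusted p = 0.171), shCENPA2 library 1 (0.72, adjusted p = 0.0659) or shCENPA2 library 2 (0.65, adjusted p = 0.158), and without the variance trend (adjusted p = 0.134).

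The next largest differences were SLC7A11 (0.55, 95% interval 0.27 to 0.82, adjusted p = 0.0716), DDIT4 (0.54, 0.26 to 0.82, adjusted p = 0.08) and CHAC1 (0.48, 0.23 to 0.73, adjusted p = 0.078), which did not pass in limma. Their intervals are not adjusted for the number of genes and lie above 0. ATF4, ATF3, PPP1R15A and VLDLR were the integrated stress response members below 0, the lowest being PPP1R15A at -0.18. CENPA itself was lower with shCENPA2, and the part of knockdown depth in these differences was not tested.

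**Figure D4:**
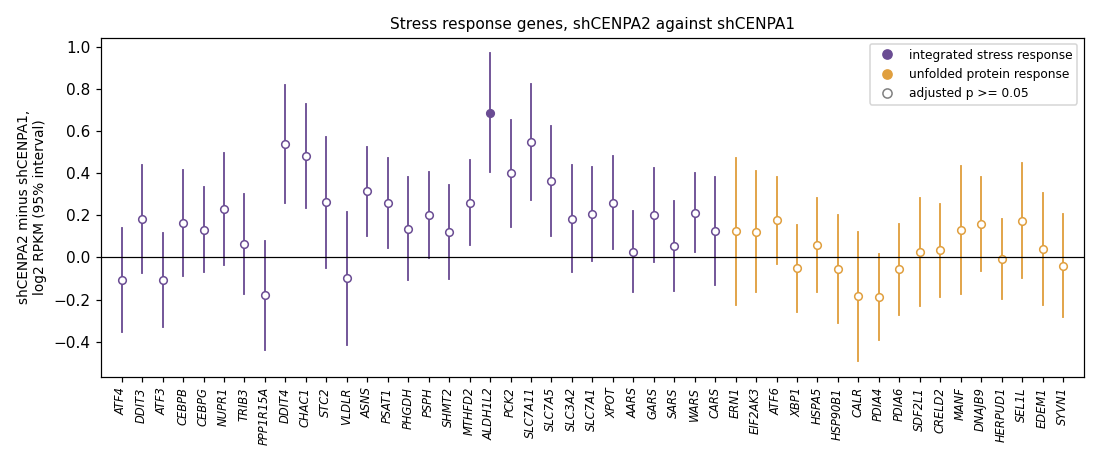
Difference between shCENPA2 and shCENPA1 in log2 RPKM (vertical axis) for the 47 members, with 95% confidence intervals from limma, purple for the integrated stress response and orange for the unfolded protein response. ALDH1L2 at 0.69 carries the 1 filled point, and 36 of 47 points lie above 0.

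Lists of related genes place the members among their pathway. They were written from general knowledge with earlier results of these data known, so they are not an independent check. The shares of all genes that follow stand beside each list, here and in the next paragraphs. In limma 2.69% rose and 4.45% fell with shCENPA1, 8.05% rose and 10.5% fell with shCENPA2, and 2.37% rose with both. At an unadjusted p under 0.05, 10.7% were higher and 11.4% lower with shCENPA1, and 15.3% and 17% with shCENPA2. Voom called 3.19% higher and 5.36% lower with shCENPA1, and 10.3% and 10.7% with shCENPA2. Of 21 other ATF4 targets, 8 rose with shCENPA1 and 9 with shCENPA2, 7 of them with both, and 0 fell, also at an unadjusted p under 0.05 and in voom. The secreted stress cytokine GDF15 was at 4.24 and 4.03 log2 RPKM with shNT, 5.21 and 5.23 with shCENPA1, and 6.04 and 5.82 with shCENPA2. It rose 2.12-fold and 3.45-fold (limma adjusted p = 0.000447 and 1.27e-05), with 3 separate groups. FAM129A (NIBAN1) rose 1.74-fold and 3.13-fold (adjusted p = 0.00196 and 1.73e-05). GDF15 and FAM129A were also higher with shCENPA2 than with shCENPA1, by 0.71 and 0.85 (adjusted p = 0.0142 and 0.00573).

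Of 15 other cytosolic tRNA synthetases, 0 passed with shCENPA1 in limma (6 higher and 1 lower at an unadjusted p under 0.05, and 2 higher in voom), and 5 rose and 1 fell with shCENPA2. MARS and YARS, those with the largest change shared by both shRNAs, differed by 0.34 and 0.33 with shCENPA1 (limma adjusted p = 0.0514 and 0.0624) and rose by 0.57 and 0.42 with shCENPA2 (0.00209 and 0.0116). Another list held 15 genes for eIF2, its exchange factor, its kinases other than EIF2AK3, the phosphatase subunit PPP1R15B, and GCN1, IMPACT and DNAJC3, which regulate the kinases. Of these, 0 passed with either shRNA in limma or voom. At an unadjusted p under 0.05, 1 was lower with shCENPA2, where 17% of all genes were. The medians were 0.01 and 0.01. EIF2S1, the subunit that is phosphorylated, differed by -0.20 and -0.28 (adjusted p = 0.273 and 0.0888), and EIF2B4, a subunit of the exchange factor, by 0.16 and 0.16 (adjusted p = 0.394 and 0.299).

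Of 44 other ER folding and secretion genes that were tested, 1 rose with shCENPA1, and 3 rose and 5 fell with shCENPA2. At an unadjusted p under 0.05, 3 were higher and 4 lower with shCENPA1, beside 10.7% and 11.4% of all genes. With shCENPA2 9 were higher and 7 lower, beside 15.3% and 17%. Voom called 1 higher with shCENPA1, beside 3.19% of all genes. With shCENPA2 it called 7 higher (HYOU1, ERO1B, ERP44, SEC61A1, SSR4, MBTPS1 and OS9) and 5 lower, beside 10.3% and 10.7%. The ER chaperone HYOU1, singled out after its values were seen, rose 1.53-fold with shCENPA2 (0.61 ± 0.10, limma adjusted p = 0.00327), and its difference with shCENPA1 was 0.35 ± 0.10 (adjusted p = 0.0817). OS9, a lectin of ER-associated degradation, rose with both, by 0.49 and 0.51 (limma adjusted p = 0.0172 and 0.00608). DERL3 differed by -1.03 with shCENPA1 (adjusted p = 0.09) and fell by 1.14 on the log2 scale with shCENPA2 (adjusted p = 0.0332), from 114 to 344 reads per library. Of 13 cytosolic heat shock genes, 0 passed in limma or voom, and at an unadjusted p under 0.05 there was 1 higher with shCENPA1 and 1 higher and 1 lower with shCENPA2, with BAG3 at 0.30 and 0.28 and HSPE1 at -0.30 and -0.29 (adjusted p = 0.0579 to 0.253 over both genes and shRNAs).

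Of 11 targets of the oxidative stress factor NRF2, 3 rose with shCENPA1, 4 rose with shCENPA2 and 0 fell in limma or voom, with 1 and 2 lower at an unadjusted p under 0.05. The quinone reductase NQO1 rose 3.08-fold and 2.66-fold (limma adjusted p = 3.73e-05 and 1.97e-05), and the malic enzyme ME1 rose 1.70-fold and 2.41-fold (adjusted p = 0.00236 and 5.81e-05). All 12 proliferation genes fell with both shRNAs, with medians of -1.13 and -1.40. Among them MKI67 fell by 1.40 and 1.66 on the log2 scale (adjusted p = 0.000311 and 4.47e-05) and TOP2A by 1.34 and 1.71 (9.21e-05 and 6.67e-06). Proliferation and the stress genes thus moved in the same libraries, and the part of the one in the other was not tested.

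**Figure D5:**
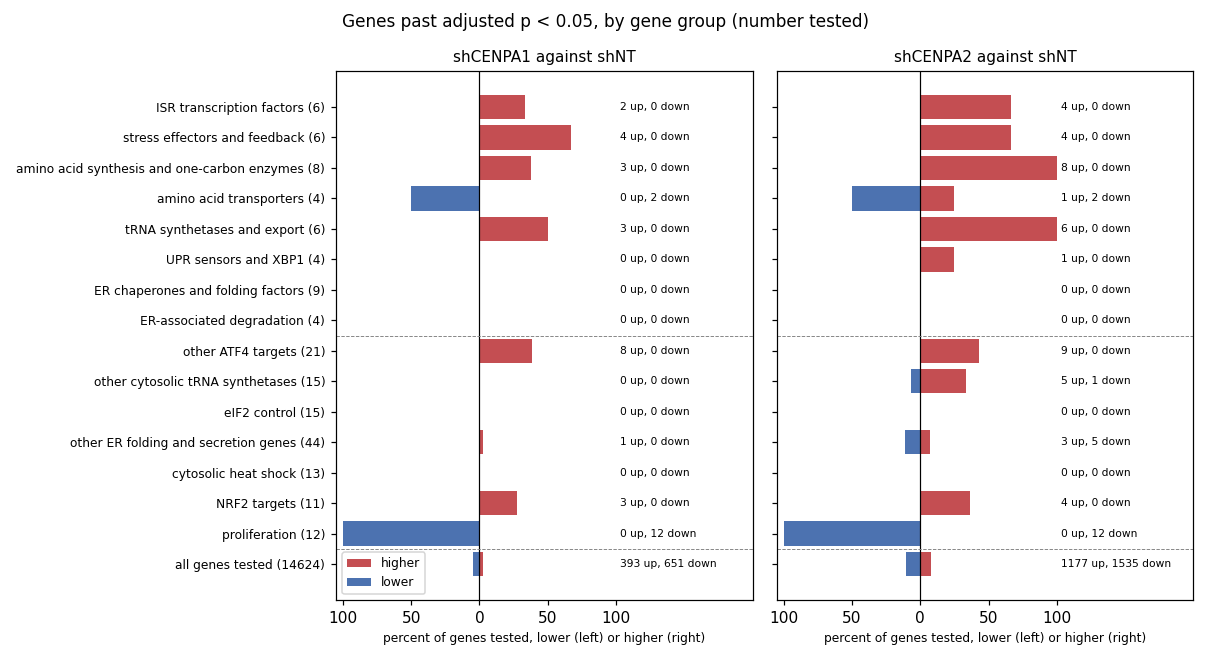
Share of genes in each group that rose (right, red) or fell (left, blue) at an adjusted p under 0.05 from limma, in percent of the genes tested, with shCENPA1 on the left and shCENPA2 on the right. The 8 role groups of the members stand at the top, the 7 related lists below them and all genes tested at the bottom, where 2.69% and 8.05% rose and 4.45% and 10.5% fell.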

How the data were processed

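RNA-seq was made by the authors from 6 TruSeq stranded mRNA libraries of 22Rv1 cells. By the study's methods, reads were trimmed with TrimGalore, aligned with STAR to hg38, counted with HTSeq and tested with a count model. Versions and the strand setting are not given in the sources used here. The authors deposited log2 RPKM (reads scaled to gene length and library size) for 14828 genes in 12 runs, which already include a small added count, which pulls fold changes at low expression towards 0. Levels compared between genes are on this per-length scale. No column of values was left unused.

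The 2 lanes of a library were averaged: between lanes the chi-square per gene was 1.24 to 1.31, between libraries of one shRNA 26.5 to 80.1. Genes whose log2 RPKM averaged -3 or more were fitted in limma 3.58.1 (R 4.3.3; lmFit, contrasts of 3 group means, eBayes with a variance trend), with no covariate and Benjamini-Hochberg adjustment over 14624 genes. SE and 95% intervals come from that fit, and intervals are not adjusted. An exact permutation of 2 against 2 libraries cannot give a two-sided p under 0.333, so none was used.

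Whole reads were recovered from the steps of the deposited values for 14828 of 14828 genes (largest distance from a whole read 2.8e-08) and gave the depth and a limma voom alternative. At this depth the spread between libraries, not counting error, limits most members. Both scripts were tested on simulated data. The members and all gene lists were chosen with earlier results of these data known. Members named with a value in each library are the main regulators, those past the test with both shRNAs, those past it between the shRNAs, and HERPUD1, which was added for its motifs after its values were seen. SLC7A11 and other members outside these are given by differences. From each related list, the 2 genes with the largest change shared by both shRNAs were named.

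Promoter windows are RefSeq's on GRCh38.p14. Positions and shared exon bases are from GENCODE 44 on GRCh38, the assembly also called hg38. The pairing of libraries by number was checked, and same-numbered libraries correlated at -0.0641, -0.0952 and -0.145 in their deviations from the group means. These values have no reference for a shared batch, so they do not show whether the numbers pair the libraries. The 20 alternatives were lanes as replicates (independent or with their estimated correlation of 0.878), single lanes, a replicate block, other filters (none, or a mean of at least 0), 0.1 or 1 added to RPKM, median-centred or quantile-normalized libraries, no variance trend, only the groups compared, voom, and each of 6 libraries left out. The authors' tissue and ChIP-seq data were not used here.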

Additional observations from a re-analysis of the deposited data

Results flagged for a closer look

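ALDH1L2, the mitochondrial formyltetrahydrofolate dehydrogenase, was the 1 member whose response differed between the CENPA-targeted shRNAs by the test of the difference itself. It was higher with shCENPA2 than with shCENPA1 by 0.69 in log2 RPKM (limma adjusted p = 0.0335), and both shCENPA2 libraries lay above both shCENPA1 libraries. Over the alternatives in which the call was lost, the adjusted p was 0.0659 to 0.171. With 2 libraries per shRNA, no library could be tested as an outlier.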

How the results depend on the processing

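The medians of the members kept their sign and moved by less than their spread between pairs of libraries in all 20 alternatives and all 3 comparisons. With lanes as independent replicates 32 members rose with shCENPA1, 19 were higher and 1 lower with shCENPA2 than with shCENPA1, where 19.2% of all genes rose with shCENPA1, and 10.1% were higher and 12.6% lower between the shRNAs. With the correlation of lanes estimated these were 25 higher with shCENPA1 and 9 higher between the shRNAs (6.17% and 1.31% of all genes). Lanes of a library are technical, and both fits count 4 runs per shRNA. Without the variance trend 6 rose and 1 fell with shCENPA1, 1 fell with shCENPA2 and 0 were higher between the shRNAs, with DDIT3, TRIB3, SHMT2, GARS, WARS and SARS among the calls lost (1.91% of all genes rose with shCENPA1). Between the shRNAs, 2 were higher with only the groups compared (0.568% of all genes) and 3 with voom (0.684%). With shCENPA2, 1 fell after median centring, where SLC3A2 missed the threshold (adjusted p = 0.0513). The replicate block gave 11 higher and 2 lower with shCENPA1, beside 2.09% and 3.84% of all genes. With shCENPA2 it gave 21 higher and 1 lower, beside 6.81% and 9.43%. The labels do not say that the numbers pair the libraries. Under the block SARS with shCENPA1 (limma adjusted p = 0.0709) and ATF6 and SLC3A2 with shCENPA2 (0.0722 and 0.0582) missed the threshold. With 1 library left out, 5 to 12 rose and 1 to 2 fell with shCENPA1, 13 to 23 rose and 1 to 2 fell with shCENPA2, and 0 to 1 were higher between the shRNAs. There the lone library is assumed to vary like the other groups.

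Of the values of single members named, 6 changed sign, all of them XBP1 near 0. XBP1 with shCENPA1 was between -0.030 and 0.11 with 1 library left out, below 0 without shNT library 2 (-0.0063) and without shCENPA1 library 2. XBP1 with shCENPA2 became 0.0088 after median centring and 0.015 with voom, and was between -0.059 and 0.031 with 1 library left out. Over the 20 alternatives for 45 values, 820 kept their direction and side of the threshold, 51 lost the call and 23 gained one. STC2, CHAC1, DDIT4, ASNS and SLC7A5 passed with both shRNAs in all 20. Median centring shifted the median of all genes by 0.02. Where no value above shows it, the cause was not tested.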
